A study of Bos taurus with 90 samples.

Results

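The miR-26 family was followed here through its 2 members, miR-26a and miR-26b, in 5 tissues of dairy cows. They were chosen by name, as the 2 rows called miR-26a and miR-26b among the 388 miRNAs listed in at least 1 tissue, and both were listed in all 90 samples. The samples were rumen epithelium, duodenum epithelium, jejunum epithelium, liver and mammary gland, with 18 samples of each tissue. Within each tissue 6 samples came from each diet, in which the forage was rice straw, corn stover or alfalfa hay. By the study's methods the tissues were taken at slaughter from 18 Chinese Holstein cows in mid-lactation, so samples of different tissues share cows. No allele or drug was part of the design, there was no group without a forage treatment, and the labels give neither the age of a cow nor which samples came from the same cow. The p-values below therefore measure the spread between samples only, and the tests between tissues treat samples of the same cow as independent. The unit of each level was CPM, the reads of a miRNA per 1000000 reads mapped to annotated bovine miRNAs, so that 10000 CPM is 1% of the miRNA reads of a sample.

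miRNAs are short RNAs that guide the silencing complex to messenger RNAs, mainly through the seed near their 5′ end. miR-26a and miR-26b carry the same seed and near-identical mature sequences, so they are expected to recognise largely the same targets. The family is known for restraining growth, for repressing the histone methyltransferase EZH2 and for being held down by the transcription factor MYC. Its genes lie in introns of genes for small C-terminal domain phosphatases, and host and miRNA are often made together. In the RefSeq annotation of the ARS-UCD2.0 cattle assembly, MIR26A-1 lay within CTDSPL, MIR26A-2 within CTDSP2 and MIR26B within CTDSP1. It also lists MIR26C over the same interval as MIR26A-1, and no row of the files carries that name. Both MIR26A genes give mature miR-26a, so the miR-26a row cannot tell their products apart. The alignment used by the study allowed mismatches and multiple mappings, so some reads of one member may have been counted for the other.

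The members were deeply counted. The 90 libraries held an estimated 937556 to 15621501 mapped reads, worked out from the spacing of low CPM values, and the fewest reads in any library were 27792 for miR-26a and 2950 for miR-26b. Several libraries stood apart. In mammary gland 3 libraries (rice straw 1, rice straw 5 and alfalfa hay 1) held under 2000000 mapped reads and are called shallow below. Their median sums were 3985 CPM for 3 red blood cell miRNAs and 2084 CPM for 6 leukocyte miRNAs, against 1746 and 6047 CPM in the other 15. For 5 epithelial miRNAs and for the smooth muscle pair they were 25610 and 188040 CPM, against 45143 and 123835 CPM. These ranges overlapped, and the parts of depth and content in their miR-26 levels were not tested. In jejunum, corn stover 1, 2 and 6 had 8.13 to 37.7 CPM of miR-31 against 337 to 478 CPM in corn stover 3, 4 and 5. Their reads outside the listed miRNAs came to 281, 440 and 221 CPM, against 44.9 to 72.6 CPM in the other jejunum libraries. Their 5 epithelial miRNAs of the miR-200 family summed to 7267 to 10702 CPM, against 4714 to 6806 CPM in corn stover 3, 4 and 5. The main results that rest on these libraries are also given without them. The tissue labels were checked against cell type markers. miR-122, the hepatocyte miRNA, was at 8671 to 12721 CPM in liver, at 0 to 48.5 CPM in mammary gland and not listed in the other 3 tissues. The intestinal miRNAs miR-192, miR-194 and miR-215 summed to at least 144396 CPM in each duodenum and jejunum sample to at most 4561 CPM in each rumen sample, and to 122056 CPM or more in each liver sample. The smooth muscle pair miR-143 and miR-145 summed to 70758 to 296908 CPM over all tissues, including the 3 labelled as epithelium. The samples were blocks of tissue, in which fewer cells of a type and less RNA per cell cannot be told apart.

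miR-26a was among the most abundant miRNAs of each tissue. In rumen its level ran from 42146 to 152436 CPM with a median of 102133 CPM, and its mean was 102589 ± 27255 CPM (SD, n = 18). In duodenum it ran from 48249 to 94304 CPM with a median of 76998 CPM and a mean of 73719 ± 11580 CPM (SD, n = 18). In jejunum it ran from 38174 to 85367 CPM with a median of 70932 CPM and a mean of 68717 ± 12188 CPM (SD, n = 18). The jejunum values lay within the range of duodenum except at their low end, which was set by corn stover samples. In liver it ran from 65573 to 87823 CPM with a median of 73863 CPM and a mean of 73707 ± 5360 CPM (SD, n = 18), the narrowest spread of the 5 tissues. In mammary gland it ran from 22579 to 123961 CPM with a median of 87947 CPM and a mean of 80339 ± 31375 CPM (SD, n = 18), the widest spread. The 3 mammary gland libraries under 2000000 reads held 22579 to 29643 CPM, below each of the other 87 samples in all tissues, and without them the mammary gland mean was 91062 ± 21312 CPM (SD, n = 15).

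By mean level miR-26a ranked 3rd of 340 listed miRNAs in rumen, between miR-27b (103506 ± 14201 CPM, SD, n = 18) and miR-21-5p (75982 ± 18024 CPM, SD, n = 18). miR-27b is known for regulating lipid metabolism and miR-21-5p rises in many growing and inflamed tissues. It also ranked 3rd in duodenum, between the smooth muscle miRNA miR-143 and the intestinal miRNA miR-215, and 3rd in jejunum, between the intestinal miRNA miR-192 and the HOX-cluster miRNA miR-10a. In liver it ranked 6th, between miR-30a-5p and miR-27b, and in mammary gland 5th, between miR-10b and miR-21-5p. In single samples its rank ran from 1 to 8.

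miR-26b was about an order of magnitude less abundant, and its order over the tissues was different. In rumen its level ran from 3624 to 6635 CPM with a median of 5863 CPM and a mean of 5456 ± 980 CPM (SD, n = 18). In duodenum it ran from 5954 to 8929 CPM with a median of 7613 CPM and a mean of 7663 ± 815 CPM (SD, n = 18). In jejunum it ran from 5595 to 9148 CPM with a median of 7584 CPM and a mean of 7496 ± 1052 CPM (SD, n = 18). Rumen, which had the highest mean of miR-26a, thus had the lowest mean of miR-26b. In liver miR-26b ran from 5902 to 9125 CPM with a median of 8049 CPM and a mean of 7780 ± 758 CPM (SD, n = 18). In mammary gland it ran from 2940 to 15479 CPM with a median of 10615 CPM and a mean of 9385 ± 3605 CPM (SD, n = 18), or 10606 ± 2483 CPM (SD, n = 15) without the 3 shallow libraries. By mean level miR-26b ranked 26th in rumen, 23rd in duodenum and in jejunum, 19th in liver and 17th in mammary gland, and its rank in single samples ran from 14 to 36.

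**Figure D1:**
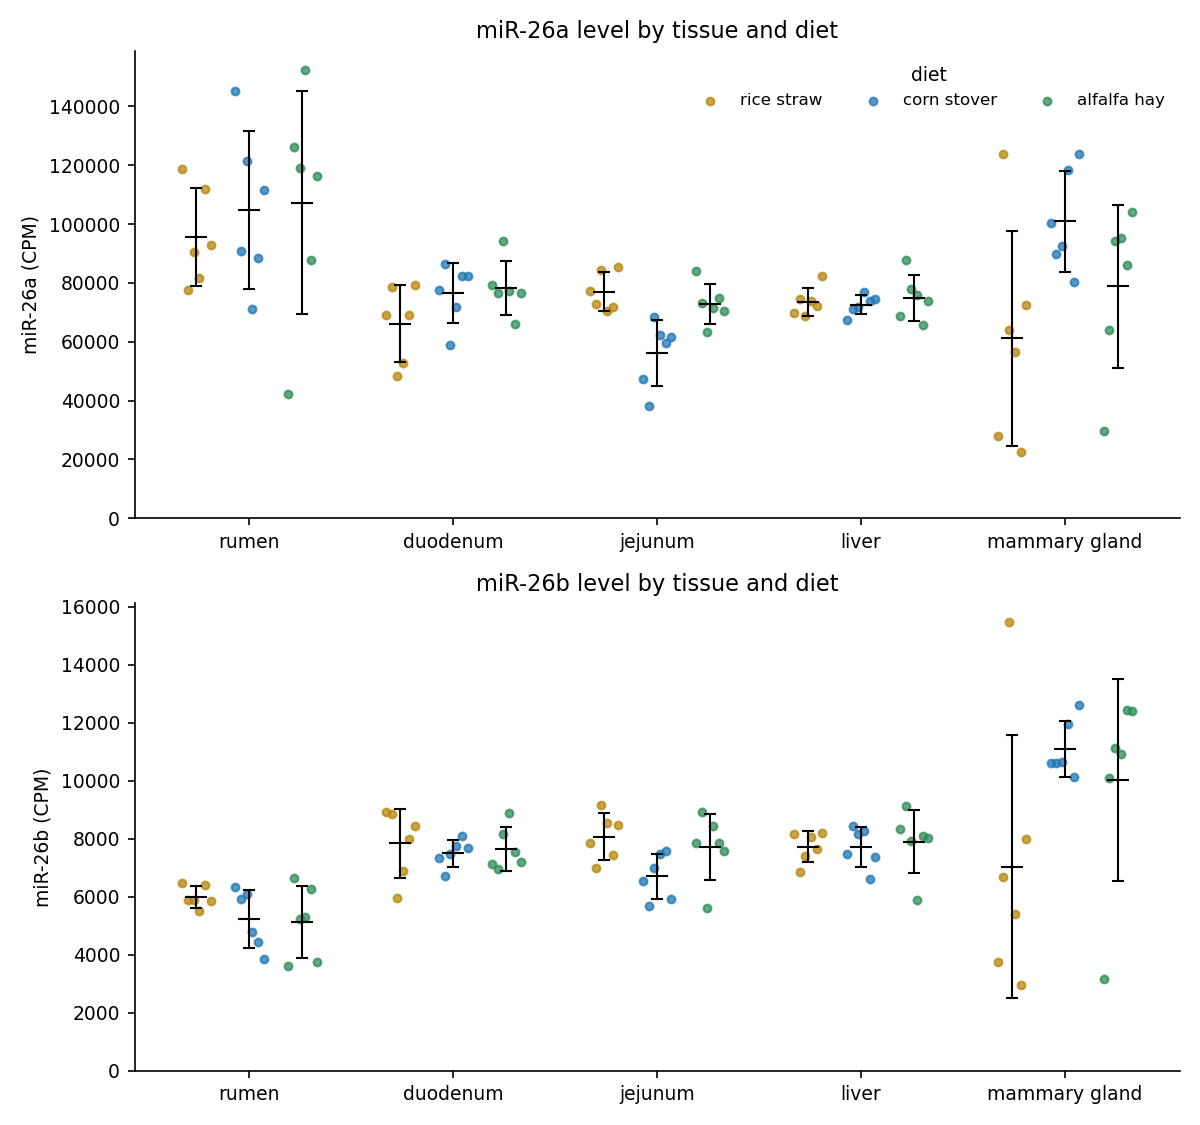
Level in CPM (vertical axes from 0) of miR-26a (top) and miR-26b (bottom) by tissue and diet, where each point is 1 sample and the black bars give the mean ± SD of the 6 samples of a diet. The rumen groups have the highest means of miR-26a outside the mammary gland corn stover group and, apart from the spread-out mammary gland samples, the lowest points of miR-26b, and the 3 low mammary gland points of each panel are the shallow libraries.

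Together the members made up 8.74% ± 2.36 (SD, n = 90) of miRNA reads over all samples, from 2.55% to 15.8%. By tissue the share was 10.8% ± 2.76 in rumen, 8.97% ± 3.39 in mammary gland, 8.15% ± 0.556 in liver, 8.14% ± 1.19 in duodenum and 7.62% ± 1.30 in jejunum (SD, n = 18 each). Without the 3 shallow libraries the mammary gland share was 10.2% ± 2.18 (SD, n = 15). The part of these reads that was miR-26b was 5.32% ± 1.35 in rumen against 10.8% ± 2.81 in mammary gland, 9.97% ± 1.31 in jejunum, 9.57% ± 0.962 in liver and 9.56% ± 1.31 in duodenum (SD, n = 18 each). The family share was thus made up differently in rumen than in the other 4 tissues, which lay close to each other.

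The ratio of miR-26a to miR-26b within a library does not depend on how the libraries are scaled, and it set rumen apart. In rumen the ratio ran from 11.6 to 31.2 with a median of 17.9 and a mean of 19.1 ± 5.73 (SD, n = 18). In duodenum it ran from 7.69 to 12.9 with a median of 9.34 and a mean of 9.66 ± 1.5 (SD, n = 18). In jejunum it ran from 6.70 to 11.3 with a median of 9.40 and a mean of 9.18 ± 1.25 (SD, n = 18). No jejunum sample reached the lowest rumen sample, and 17 of the 18 rumen samples lay above all duodenum samples. In liver the ratio ran from 8.10 to 12.8 with a median of 9.28 and a mean of 9.56 ± 1.17 (SD, n = 18), and 17 of 18 rumen samples lay above all of these. In mammary gland it ran from 4.14 to 18.5 with a median of 8.59 and a mean of 8.88 ± 2.83 (SD, n = 18), and 8 of 18 rumen samples lay above all of these. Both extremes of mammary gland were rice straw samples. The highest was rice straw 2, with 123874 CPM of miR-26a and 6685 CPM of miR-26b, and the lowest was rice straw 3, with 64142 and 15479 CPM. The 3 shallow libraries were not extreme in this measure, with ratios from 7.46 to 9.42, and without them the mammary gland ratio was 9.02 ± 3.07 (SD, n = 15).

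The ratio in rumen was 1.93-fold that in duodenum (0.95 on the log2 scale, SE 0.11), 2.02-fold that in jejunum (1.02, SE 0.11), 1.94-fold that in liver (0.95, SE 0.10) and 2.16-fold that in mammary gland (1.11, SE 0.14). In a two-sided permutation test of the log2 ratio with 100000 permutations, each of these 4 differences had p = 1e-05, the smallest that the permutations can give, and an adjusted p of 2.5e-05 over the 10 pairs of tissues. The other 6 pairs did not pass, with adjusted p from 0.269 to 0.905. With single libraries left out, 4 to 6 of the 10 pairs passed. The order of the mean log2 ratio was rumen, duodenum, liver, jejunum and mammary gland. With all libraries, no neighbours after rumen differed beyond their spread. The largest of the 6 differences that did not pass was 0.16 (SE 0.11) between duodenum and mammary gland.

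The rumen ratio was above the others under each diet. Of the 12 comparisons of rumen with another tissue within a diet, 10 had no overlap between the 6 and 6 samples. The exceptions were alfalfa hay against liver, where 5 of 6 rumen samples lay above all liver samples, and rice straw against mammary gland, where rice straw 2 of mammary gland lay above all rumen samples. How many ratios of other miRNA pairs separate rumen as fully was not counted. Among single miRNAs, 72.7% to 84.8% differed between rumen and another tissue in limma (adjusted p under 0.05). Within rumen the ratio was 15.9 ± 1.85 on rice straw, 20.3 ± 5.2 on corn stover and 21.2 ± 7.84 on alfalfa hay (SD, n = 6 each).

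**Figure D2:**
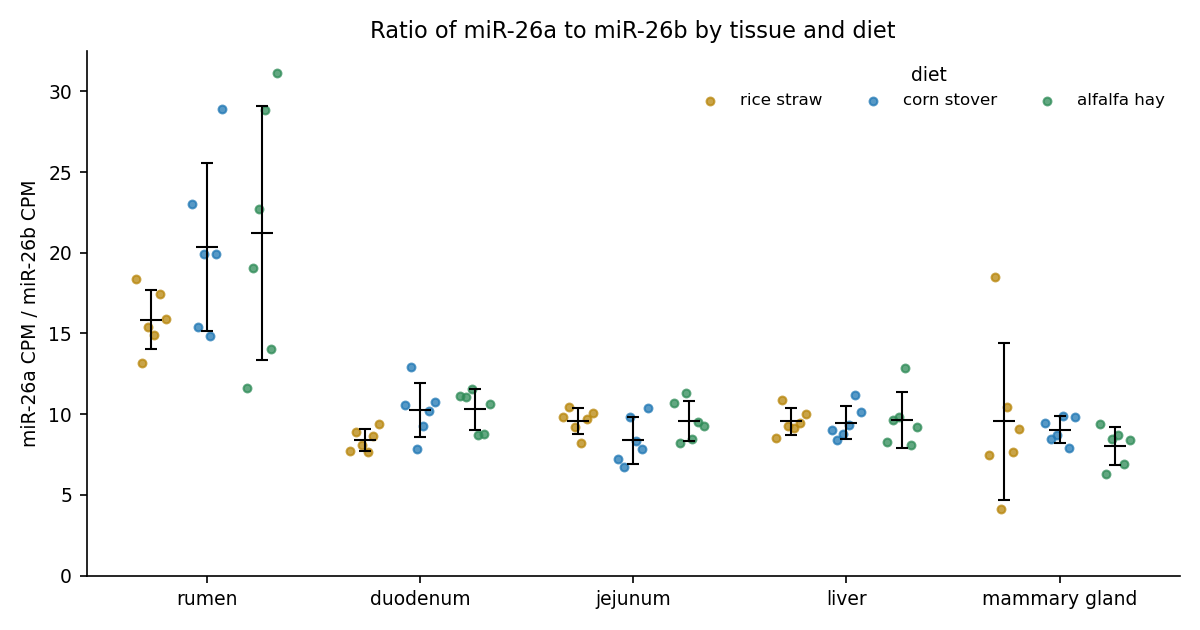
Ratio of miR-26a CPM to miR-26b CPM (vertical axis from 0) by tissue and diet, where each point is 1 sample and the black bars give the mean ± SD of the 6 samples of a diet. The rumen samples lie from 11.6 to 31.2 and nearly all other samples lie below them, with 1 mammary gland rice straw sample at 18.5.

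**Figure D3:**
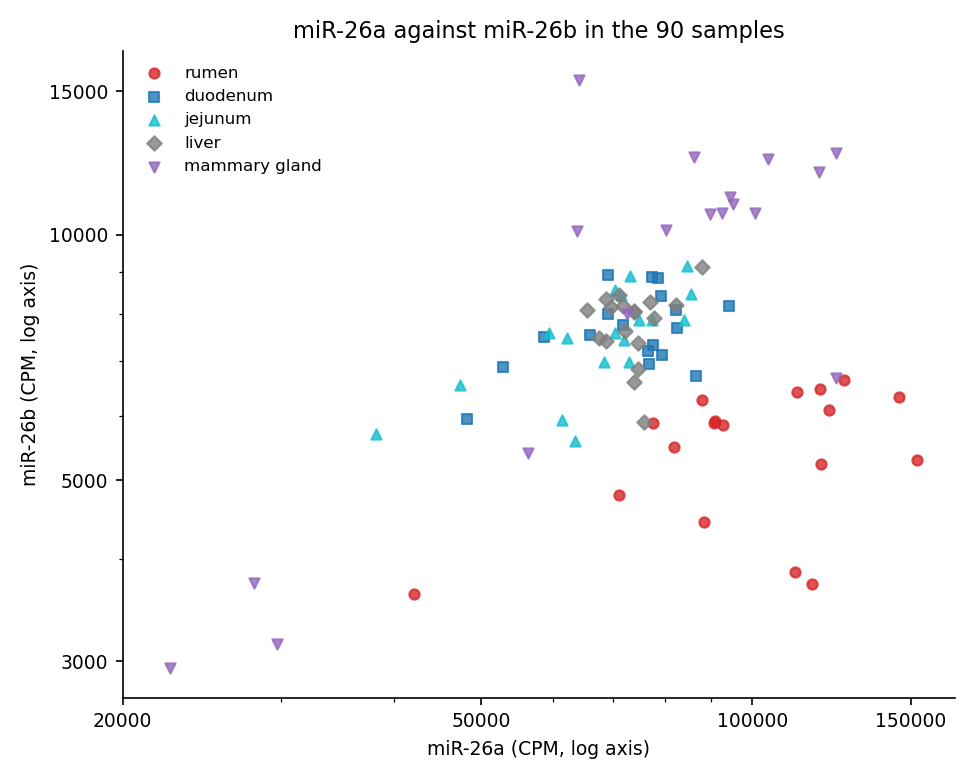
Level of miR-26b (CPM, log axis) against that of miR-26a (CPM, log axis) in the 90 samples, with a colour and symbol for each tissue. The rumen samples form a band to the lower right, with more miR-26a for the same miR-26b, while the 3 shallow mammary gland libraries at the lower left keep the ratio of the other mammary gland samples.

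The levels of the members were compared between tissues with limma on log2(CPM + 1), with p-values adjusted over the 289 miRNAs listed in all 5 tissues and a threshold of 0.05. The differences below are on that scale and are means over the 3 diets. miR-26a was higher in rumen than in duodenum by 0.44 (SE 0.128, adjusted p = 0.00158 in limma), where 72.7% of all miRNAs tested were called. It was higher in rumen than in jejunum by 0.55 (adjusted p = 1.05e-04 in limma, 75.8% of all called), than in liver by 0.42 (adjusted p = 0.00184, 84.4% called) and than in mammary gland by 0.44 (adjusted p = 0.00121, 84.8% called), with the same SE. Of the 18 rumen samples, 9 lay above all duodenum samples, 14 above all jejunum samples, 13 above all liver samples and 3 above all mammary gland samples.

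miR-26b moved the other way. It was lower in rumen than in duodenum by a log2 difference of -0.51 (SE 0.116, adjusted p = 7.37e-05 in limma), than in jejunum by -0.47 (adjusted p = 2.28e-04), than in liver by -0.53 (adjusted p = 2.65e-05) and than in mammary gland by -0.66 (adjusted p = 3.20e-07), with the same SE. Of the 18 rumen samples, 12 lay below all duodenum samples, 8 below all jejunum samples, 11 below all liver samples and 0 below all mammary gland samples, and none was above the median of another tissue. Since most miRNAs differed between these tissues, a call by itself does not set the members apart.

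None of the 6 tissue pairs without rumen was called for either member on the CPM scale. The share of all miRNAs called was 11.4% for duodenum against jejunum, 82.7% for duodenum against liver and also against mammary gland, 84.8% for jejunum against liver, 81.3% for jejunum against mammary gland and 70.2% for liver against mammary gland. For miR-26a the differences in these pairs ran from -0.12 (jejunum minus liver) to 0.11 (duodenum minus jejunum). For miR-26b they ran from -0.20 (jejunum minus mammary gland, 95% interval -0.43 to 0.04) to 0.04 (duodenum minus jejunum, -0.19 to 0.27). These intervals do not show that the levels were equal. Without the 3 shallow libraries, 3 pairs with mammary gland passed for miR-26b, at -0.40 against duodenum, -0.44 against jejunum and -0.38 against liver, and without alfalfa hay 1 alone the same 3 did, at -0.26, -0.30 and -0.24. For miR-26a the differences without the 3 libraries were -0.26 for duodenum minus mammary gland (adjusted p = 0.0161 in limma), -0.37 for jejunum minus mammary gland (adjusted p = 7.68e-04) and -0.24 for liver minus mammary gland (adjusted p = 0.0262).

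The scaling of the libraries bore on the 2 members differently. On the CPM scale the median difference over all 289 miRNAs was 0.19 for rumen minus duodenum, 0.19 for rumen minus jejunum, 0.47 for rumen minus liver and 0.34 for rumen minus mammary gland. Against these medians miR-26a stood at 0.25, 0.36, -0.04 and 0.11, and miR-26b at -0.69, -0.66, -1.0 and -1.0. In these pairs 48.1% to 65.7% of the 289 miRNAs had a lower difference than miR-26a, and 24.9% to 26.6% a lower one than miR-26b. With the libraries scaled to their upper quartile, miR-26a was 0.25 higher in rumen than in duodenum (adjusted p = 0.0228 in limma) and 0.38 higher than in jejunum, but 0.29 lower in rumen than in liver (a difference of -0.29, adjusted p = 0.00749), and its 0.13 against mammary gland did not pass (adjusted p = 0.254). With TMM scaling (a trimmed mean of log ratios) its differences were 0.21 (adjusted p = 0.0621 in limma), 0.36, -0.17 (adjusted p = 0.127) and 0.17 (adjusted p = 0.131). The tissue pairs without rumen also moved with the scaling. Liver, level with duodenum and jejunum on the CPM scale, was then above both, with duodenum minus liver of miR-26a at -0.55 with the upper quartile (adjusted p = 1.70e-06 in limma) and -0.38 with TMM (adjusted p = 7.25e-04), and jejunum minus liver at -0.67 and -0.53, each called. Liver minus mammary gland of miR-26a was 0.42 and 0.34, both called, and jejunum minus mammary gland was called at -0.25 with the upper quartile alone. For miR-26b 5 of the 6 pairs without rumen were called under each of these scalings, duodenum minus liver at -0.55 and -0.39 among them, and duodenum minus jejunum was not. Of the 4 rumen pairs called for miR-26a on the CPM scale, 3 were called with the upper quartile (1 of them in the other direction) and 1 with TMM. Higher miR-26a in rumen was thus called under each scaling against jejunum alone, and against liver its direction turned. miR-26b was lower in rumen in all 4 pairs under each scaling, by -0.64 to -1.25 with the upper quartile and by -0.66 to -1.12 with TMM, each called. Over all 289 miRNAs the calls of rumen against liver were 159 higher and 85 lower on the CPM scale, 110 and 142 with the upper quartile and 119 and 128 with TMM, and those against duodenum were 130 and 80, 118 and 107, and 110 and 109. Without the 3 shallow mammary gland libraries, rumen minus mammary gland of miR-26a was 0.18 (adjusted p = 0.0881 in limma), so that call rested on them.

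**Figure D4:**
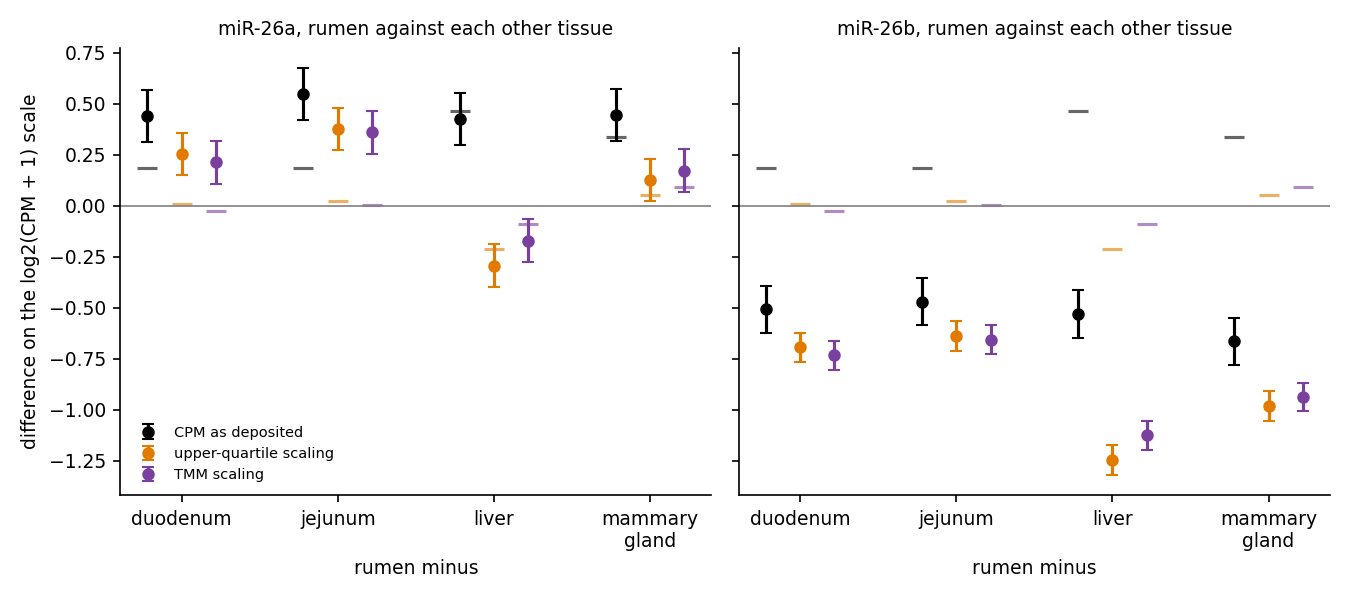
Difference of rumen minus each other tissue for miR-26a (left) and miR-26b (right) on the log2(CPM + 1) scale, as dots ± SE for CPM as deposited and for upper-quartile and TMM scaling, with dashes for the median difference of all 289 miRNAs. miR-26b lies below 0 and below the dashes in each case, while miR-26a lies near the dashes for liver and changes sign there with the scaling.

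The differences between diets were compared within each tissue, with a limma F test over the 3 diets of the 18 samples. In jejunum miR-26a passed (F = 7.74, adjusted p = 0.0186 in limma), where 23.8% of all 336 miRNAs tested were called. On corn stover it ran from 38174 to 68480 CPM with a median of 60451 CPM and a mean of 56208 ± 11206 CPM (SD, n = 6). On rice straw it ran from 70302 to 85367 CPM with a median of 75155 CPM and a mean of 77074 ± 6525 CPM (SD, n = 6). On alfalfa hay it ran from 63474 to 83960 CPM with a median of 72278 CPM and a mean of 72870 ± 6677 CPM (SD, n = 6). All corn stover samples lay below all rice straw samples, and the ranges of corn stover and alfalfa hay overlapped. How many of the 336 miRNAs separated corn stover from rice straw as fully was not counted.

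The difference in jejunum was -0.48 for corn stover minus rice straw (SE 0.130, adjusted p = 0.0111 in limma), where 28.6% of all miRNAs were called. It was 0.40 for alfalfa hay minus corn stover (SE 0.130, adjusted p = 0.0333 in limma), where 22% were called. The median over all miRNAs moved the same way, by -0.18 and 0.17. The calls of corn stover minus rice straw were 31 higher and 65 lower over all miRNAs on the CPM scale, and 58 higher and 39 lower with TMM. miR-26b in jejunum did not pass the F test (adjusted p = 0.161 in limma), with -0.27 for corn stover minus rice straw (adjusted p = 0.0836) and 0.20 for alfalfa hay minus corn stover (adjusted p = 0.219). The ratio of the members in jejunum did not pass either, at 8.38 ± 1.44 on corn stover, 9.58 ± 0.780 on rice straw and 9.58 ± 1.23 on alfalfa hay (SD, n = 6 each, exact two-sided permutation test, adjusted p = 0.346 for both pairs with corn stover). In corn stover 3, 4 and 5 the ratio was 8.66 ± 1.03 (SD, n = 3).

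These jejunum calls depended on libraries and scaling. With upper-quartile scaling the F test of miR-26a gave an adjusted p of 0.0519 in limma and with TMM one of 0.124. Its corn stover minus rice straw difference stayed called with the upper quartile (-0.41, adjusted p = 0.0287 in limma) and not with TMM (-0.32, adjusted p = 0.0629). That call also held with each single jejunum library left out (adjusted p from 0.00451 to 0.0292 in limma). The levels of corn stover 1, 2 and 6 were 47420, 38174 and 61460 CPM. Without these 3 libraries, chosen after seeing the data, corn stover minus rice straw was -0.28 (adjusted p = 0.137 in limma) and alfalfa hay minus corn stover 0.20 (adjusted p = 0.324). Without corn stover 1 alone the F test of miR-26a had an adjusted p of 0.0579 in limma. The call of alfalfa hay minus corn stover was lost without alfalfa hay 1, 2 or 5 or corn stover 1 or 2 (adjusted p from 0.0514 to 0.0741). miR-26b passed the F test without alfalfa hay 3 (adjusted p = 0.0454). The endothelial miRNAs miR-126-3p and miR-126-5p, both listed, summed to 8000 to 12443 CPM in these 3 libraries and to 14560 to 17708 CPM in the other 3 corn stover libraries, against 19516 to 29441 CPM on rice straw and 18498 to 28030 CPM on alfalfa hay. The 6 leukocyte miRNAs summed to 19730 to 22251 CPM in the 3 libraries and to 25861 to 32062 CPM in the other 3, against 24668 to 35587 CPM on rice straw. Of them miR-146a at -0.98 and miR-155 at -0.38 were called lower in corn stover minus rice straw in limma, and the other 4 were not called, from -0.37 for miR-142-5p to 0.24 for miR-150. The smooth muscle pair summed to 184453 to 296908 CPM on corn stover and 151920 to 237701 CPM on rice straw, with miR-145 called lower at -0.57 and miR-143 not called at 0.38. The part of these cells in the result was not tested.

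In mammary gland neither member passed the F test over diets (miR-26a adjusted p = 0.156, miR-26b adjusted p = 0.201 in limma), where 3.72% of all 323 miRNAs were called. miR-26a ran from 22579 to 123874 CPM on rice straw with a median of 60250 CPM and a mean of 61233 ± 36564 CPM (SD, n = 6), from 80230 to 123961 CPM on corn stover with a median of 96497 CPM and a mean of 100904 ± 17117 CPM (SD, n = 6), and from 29643 to 104070 CPM on alfalfa hay with a median of 90255 CPM and a mean of 78881 ± 27727 CPM (SD, n = 6). The rice straw samples spanned nearly the whole range of the tissue. Corn stover minus rice straw was 0.93 for miR-26a (SE 0.351, adjusted p = 0.0511 in limma) and 0.87 for miR-26b (SE 0.366, adjusted p = 0.0789), where 26.6% of all miRNAs were called and the median of all was 0.63. All calls were 81 higher and 5 lower on the CPM scale, 10 and 31 with the upper quartile and 19 and 17 with TMM. With upper-quartile scaling these differences were 0.01 and -0.05, and with TMM 0.23 and 0.17. Of the 6 rice straw libraries 2 were shallow, and in the other 4 the mean was 79217 ± 30492 CPM for miR-26a and 8888 ± 4520 CPM for miR-26b (SD, n = 4). Without the 3 shallow libraries corn stover minus rice straw was 0.40 for miR-26a (adjusted p = 0.186 in limma) and 0.44 for miR-26b (adjusted p = 0.183). The corn stover minus rice straw difference of miR-26a passed without rice straw 2, 3 or 6 or alfalfa hay 1 (adjusted p from 0.0182 to 0.0488 in limma), and that of miR-26b without rice straw 3 (1.14, adjusted p = 0.0161) or alfalfa hay 1 (adjusted p = 0.0255).

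The other 3 tissues gave no call between diets for either member. In rumen the adjusted p of the F test was 0.944 for miR-26a and 0.520 for miR-26b in limma (1.49% of all miRNAs called). In duodenum it was 0.557 and 0.974, where 0% of 336 miRNAs were called and 36 had an unadjusted p under 0.05. In liver it was 0.973 and 0.988, where 0% of 326 miRNAs were called and 17 had an unadjusted p under 0.05. The counts of 0 were also 0 with upper-quartile and TMM scaling. For miR-26a in duodenum, alfalfa hay minus rice straw was 0.26 on the CPM scale (adjusted p = 0.455 in limma). It was 0.45 with the upper quartile (adjusted p = 0.0924) and 0.33 with TMM (adjusted p = 0.235). Liver means of miR-26a differed by at most 0.04 between diets on the log2(CPM + 1) scale.

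The ratio of the members passed the threshold between diets in none of the 15 pairs within tissues, which does not show that the ratios were equal. An exact two-sided permutation test of 6 against 6 samples cannot go below p = 0.00216. The nearest pairs were in duodenum, where the ratio was 8.41 ± 0.677 on rice straw, 10.3 ± 1.68 on corn stover and 10.3 ± 1.25 on alfalfa hay (SD, n = 6 each). Alfalfa hay minus rice straw was 0.29 on the log2 scale (SE 0.088, exact p = 0.0173, adjusted p = 0.227 over the 15 pairs), and corn stover minus rice straw was 0.27 (SE 0.108, exact p = 0.0303, adjusted p = 0.227). In rumen, corn stover minus rice straw was 0.33 (SE 0.163, exact p = 0.0671, adjusted p = 0.335).

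Whether the diet differences varied between tissues was tested in limma with the interaction of tissue and diet over all 90 samples. It passed for miR-26a (F = 2.70, adjusted p = 0.0266) and for miR-26b (F = 2.87, adjusted p = 0.0192), where 45.7% of all 289 miRNAs were called. Neither call held with upper-quartile scaling (F = 0.773 and 1.37), with TMM scaling (F = 1.04 and 0.868) or without the 3 shallow mammary gland libraries (F = 2.03, adjusted p = 0.105, and F = 2.36, adjusted p = 0.0585, in limma). The call of miR-26a was also lost without jejunum corn stover 2 or any 1 of mammary gland rice straw 1, rice straw 5, corn stover 4 and corn stover 6 (adjusted p from 0.0538 to 0.0782 in limma), and that of miR-26b without mammary gland rice straw 1 (adjusted p = 0.0872) or rice straw 5 (adjusted p = 0.118).

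**Figure D5:**
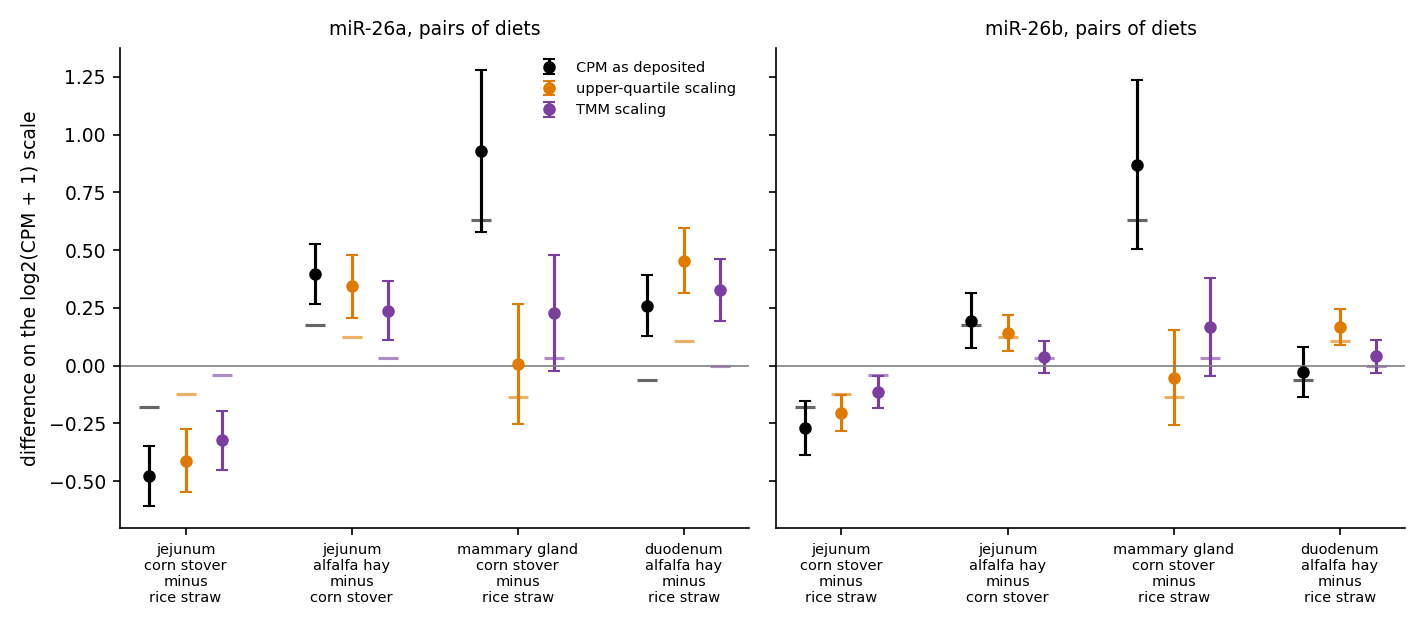
Difference between 2 diets within a tissue for miR-26a (left) and miR-26b (right) on the log2(CPM + 1) scale, as dots ± SE for CPM as deposited and for upper-quartile and TMM scaling, with dashes for the median difference of all miRNAs of the tissue. The miR-26a difference of jejunum corn stover minus rice straw stays below 0 at -0.48, -0.41 and -0.32, while the mammary gland differences of both members fall from near 0.9 to near 0 with the upper quartile.

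The levels of the members were also set against each other across the 18 samples of a tissue. They went together in jejunum (Pearson r = 0.71, Spearman rho = 0.72, adjusted permutation p = 0.00217 and 0.005 over the 5 tissues), and r was 0.62 without the 2 samples farthest from the median of miR-26a. Without corn stover 1, 2 and 6, r was 0.55 and rho 0.59 over 15 jejunum samples (unadjusted permutation p = 0.0346 and 0.0235). They also went together in mammary gland (r = 0.84, rho = 0.62, adjusted permutation p = 0.0016 and 0.0176, r = 0.68 without 2 samples), but in the 15 deeper libraries r was 0.25 (adjusted permutation p = 0.466), so the relation rested on the 3 shallow ones. In rumen r was 0.41 and rho 0.40 (adjusted permutation p = 0.113 and 0.162, r = 0.14 without 2 samples), in duodenum 0.47 and 0.24 (adjusted permutation p = 0.0874 and 0.420, r = -0.03), and in liver 0.14 and 0.04 (adjusted permutation p = 0.558 and 0.869, r = -0.09). Levels from 1 library share its scaling, which by itself moves both members together. After the diet means were taken out, r was 0.54 in jejunum and 0.79 in mammary gland, and the relation then also passed in rumen (r = 0.50, adjusted permutation p = 0.039) and duodenum (r = 0.60, adjusted permutation p = 0.0211). With upper-quartile scaling it passed in rumen (r = 0.54, adjusted permutation p = 0.0309) and duodenum (r = 0.83, adjusted permutation p = 0.0006) and not in mammary gland (r = 0.34, adjusted permutation p = 0.209).

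The miRNAs with the pattern most like each member were found by Pearson r of log2(CPM + 1) over the 90 samples, among 237 miRNAs, as a description. Values from 1 library share its depth and scaling, and the samples fall into tissues. The most like miR-26a were miR-126-3p (r = 0.74), an endothelial miRNA, miR-23b-3p (r = 0.65), let-7g (r = 0.63), let-7a-3p (r = 0.63) and miR-27a-3p (r = 0.58). miR-126-3p had 7212 ± 2060 CPM in rumen and 7902 ± 4175 CPM in mammary gland against 4253 ± 898 CPM in duodenum and 4372 ± 1132 CPM in jejunum (SD, n = 18 each). The most like miR-26b were miR-32 (r = 0.84), miR-497 (r = 0.78), of the miR-15 family, miR-33b (r = 0.68), whose host gene is the lipogenic regulator SREBF1, miR-136 (r = 0.66) and miR-15a (r = 0.65). miR-497 had 305 ± 147 CPM in rumen, the lowest of its means, and 826 ± 158 CPM in jejunum, the highest (SD, n = 18 each). The lists of the members share no miRNA. miR-26b was only the 76th of the 237 in likeness to miR-26a (r = 0.35), and miR-26a the 64th in likeness to miR-26b. Without the 3 shallow mammary gland libraries and jejunum corn stover 1, 2 and 6, 3 of the 5 were among the top 5 again for each member, and the members' own r was 0.00 over the remaining 84 samples.

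The members were read beside other miRNAs of the pathways they belong to. Of the 28 miRNAs known to be repressed by MYC, which hold both members, 14 were higher and 7 lower in rumen than in duodenum, 15 and 9 against jejunum, 12 and 10 against liver, and 13 and 8 against mammary gland in limma. These are 75%, 85.7%, 78.6% and 75% of the list, beside 72.7%, 75.8%, 84.4% and 84.8% of all 289 miRNAs, so the share called was near the background. Over all miRNAs the calls were 130 higher and 80 lower, 130 and 89, 159 and 85, and 147 and 98. Their median differences were 0.26, 0.32, -0.003 and 0.28, beside 0.19, 0.19, 0.47 and 0.34 over all miRNAs. The balance turned with the scaling, to 5 higher and 21 lower against liver and 9 and 13 against mammary gland with the upper quartile. With TMM it was 6 and 19, and 9 and 12. Over all 289 miRNAs these counts were 110 and 142, and 113 and 112, with the upper quartile, and 119 and 128, and 115 and 108, with TMM. The most abundant of the list beside miR-26a were miR-22-3p and miR-30a-5p. miR-22-3p was higher in rumen than in duodenum by 1.14 and lower than in liver by -1.70. miR-30a-5p was higher in rumen than in duodenum by 1.84 and lower than in liver by -1.46. Of the 10 miRNAs tested from the MYC-activated miR-17-92 cluster and its paralogs, known for driving cell proliferation, 9 were higher and 1 lower in rumen in each of the 4 pairs, so each of the 10 was called where 72.7% to 84.8% of all miRNAs were. With the upper quartile and also with TMM the counts were 7 higher and 1 lower against duodenum, 9 and 1 against jejunum, 8 and 1 against liver, and 9 and 1 against mammary gland. Over all miRNAs those against duodenum and jejunum were 118 and 107, and 116 and 108, with the upper quartile. With TMM they were 110 and 109, and 114 and 109, and those against liver and mammary gland are given above. The medians of the 10 miRNAs on the CPM scale were 0.66, 0.83, 1.62 and 1.83, with miR-93 higher in rumen than in duodenum by 1.06 and miR-25 by 0.65. miR-92a was the most abundant, and it was higher in rumen than in duodenum by 1.51 and lower than in liver by -0.33.

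Of 6 tested miRNAs known to target EZH2, which also hold both members, 3 were higher and 3 lower in rumen than in duodenum, jejunum and liver, and 3 higher and 2 lower than in mammary gland, beside 72.7% to 84.8% of all miRNAs called. With the upper quartile 110 of all 289 miRNAs were higher and 142 lower in rumen than in liver. The counts of the 6 were then 2 higher and 4 lower, with miR-26a among the lower ones. miR-101, the best known of them, was higher in rumen than in duodenum by 0.93 and lower than in liver by -2.04 (each called in limma), and let-7a-5p was higher than in duodenum by 1.42. In jejunum, corn stover minus rice straw called 2 of the 28 MYC-repressed miRNAs as higher and 9 as lower, with a median of -0.20, beside 28.6% called and a median of -0.18 over all 336 miRNAs. With TMM the counts were 6 and 4, beside 58 higher and 39 lower over all 336 miRNAs. Without corn stover 1, 2 and 6 the counts of the list were 1 and 2, where 10.4% of all miRNAs were called. miR-30a-5p was among the lower ones at -0.58, as was miR-26a, while miR-22-3p was higher by 0.38. In the same comparison 1 of 11 MYC-activated miRNAs was higher, which was miR-92a at 1.51, and 1 was lower, and 0 of 8 EZH2-directed miRNAs were higher and 3 lower. The 3 were miR-26a, miR-124a and miR-124b, and the last pair had the same values in each of the 54 samples that list them, so they count as 1 measurement. Without corn stover 1, 2 and 6, 0 EZH2-directed miRNAs were called in limma.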

How the data were processed

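Small RNA libraries of 90 samples (5 tissues, 3 diets, 6 samples per group) were analysed. RNA of integrity number over 7 was sequenced, and CASAVA 1.8 is named in the submitters' processing notes. By the study's methods the authors trimmed and aligned reads with sRNAbench to bovine miRBase precursors, allowing mismatches and multiple mappings. The deposited values are CPM, made by the authors by dividing a miRNA's reads by all reads mapped to miRNAs in the sample. The study's text calls these files raw counts, but the values are not whole and sum to just under 1000000 per sample.

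Low CPM values of each library (52 or more) were whole multiples of a step within a tolerance of 0.02, taken as 1 read to estimate mapped reads. In 55 of 90 libraries the smallest value was that step, and in the others a multiple of it, so the depths there rest on the values together. By this estimate 3 reads were worth 0.192 to 3.20 CPM. Such limits cover counting error only. Differences were tested with limma 3.58.1 in R 4.3.3 (trended empirical Bayes) on log2(CPM + 1), with Benjamini-Hochberg adjustment over all miRNAs fitted and a threshold of 0.05. A miRNA was fitted if over 50% of the libraries of at least 1 tissue had more than 1 CPM. The tissue fit used 15 groups of tissue and diet with contrasts averaged over diets, and each tissue was fitted alone for diets. Ratios were tested by permutation of samples (Python 3.11.15, scipy 1.17.1), exact for 6 against 6. The fits were tested on simulated data. Alternatives were the pseudocount, scaling, filters, replicate block and left-out libraries. Neighbours in rank, the 5 most alike miRNAs among those with a mean of 10 CPM or more, and the 3 most abundant members of each list were named. The members and lists were chosen with earlier results of these data known.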

Additional observations from a re-analysis of the deposited data

Results flagged for a closer look

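In liver, alfalfa hay sample 4 had 5902 CPM of miR-26b, far below the other 5 alfalfa hay samples at 7918 to 9125 CPM. In the same sample the ratio of miR-26a to miR-26b was 12.8, far above the 8.10 to 9.82 of the other 5. Its miR-26a was within the group, at 75816 CPM. In mammary gland, alfalfa hay sample 1 had 3146 CPM of miR-26b, far below the other 5 at 10097 to 12452 CPM. That library was the shallowest of the series at an estimated 937556 mapped reads, and its ratio was 9.42. A sample was called far from its group by the gap to its nearest neighbour over the range of the group. In all, 45 groups of 6 samples were looked at, and chance sets apart a sample in about 1 in 20 groups.

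The diet differences varied between tissues for both members by the interaction test in limma, with F = 2.70 (adjusted p = 0.0266) for miR-26a and F = 2.87 (adjusted p = 0.0192) for miR-26b. Of all 289 miRNAs, 45.7% were called in this test. Both calls were lost without the 3 shallow mammary gland libraries. They were also lost with upper-quartile scaling (adjusted p = 0.711 and 0.360 in limma) and with TMM scaling (adjusted p = 0.551 and 0.652).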

How the results depend on the processing

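The 4 rumen pairs of the ratio passed under each alternative run, and its diet pairs passed under none; without single libraries (20000 permutations each) 4 to 6 tissue pairs of the ratio passed. Of the 10 tissue pairs, 4 passed for each member; with the upper quartile 7 passed for miR-26a and 9 for miR-26b, with TMM 4 for miR-26a and 9 for miR-26b, and without the shallow libraries 6 for miR-26a and 7 for miR-26b. The 4 of miR-26b were among these each time, but of the 4 of miR-26a 3 passed with the upper quartile, 1 with TMM and 3 without the shallow libraries. The interaction F of miR-26a was 0.773 (upper quartile), 1.04 (TMM), 2.03 (shallow libraries out) and 1.94 (jejunum corn stover 1, 2 and 6 out, chosen after seeing the data, adjusted p = 0.134 in limma), and that of miR-26b 1.37, 0.868 and 2.36 under the first 3. The range of diet means of miR-26a in jejunum was 0.411, 0.322 and, without corn stover 1, 2 and 6, 0.280. Rumen minus liver of miR-26a turned to -0.292 (upper quartile) and -0.170 (TMM), duodenum minus mammary gland to -0.126, -0.0412 and, without the shallow libraries, -0.258, and liver minus mammary gland to -0.243 without them. For miR-26b, liver minus mammary gland turned to 0.266 and 0.188, mammary gland corn stover minus rice straw to -0.0519 (upper quartile), and duodenum minus jejunum to -0.00840 without corn stover 1, 2 and 6. The correlation of the members was 0.543 (upper quartile) and 0.503 (diet means out) in rumen, 0.834 and 0.599 in duodenum, and 0.340 (upper quartile) and 0.250 (shallow libraries out) in mammary gland. The cause of these changes was not tested.

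With each library left out in turn (chosen after seeing the data), 4 tissue pairs of miR-26a passed each time and 4 to 7 of miR-26b, the 7 without mammary gland alfalfa hay 1. The interaction F ran from 2.20 to 4.16 for miR-26a, lost without jejunum corn stover 2 or mammary gland rice straw 1, rice straw 5, corn stover 4 or corn stover 6 (highest adjusted p 0.0782 in limma), and from 1.98 to 5.37 for miR-26b, lost without mammary gland rice straw 1 or 5 (highest adjusted p 0.118). The jejunum diet range ran from 0.372 to 0.540 for miR-26a, lost without corn stover 1 (adjusted p = 0.0579), and from 0.226 to 0.312 for miR-26b, which passed without alfalfa hay 3 (adjusted p = 0.0454). The mammary gland diet range of miR-26b ran from 0.661 to 1.14 and passed without rice straw 3 (adjusted p = 0.0476) or alfalfa hay 1 (adjusted p = 0.0388). Pairs that were not called crossed 0, which were miR-26a duodenum minus liver (-0.0338 to 0.0138), duodenum minus mammary gland (-0.0816 to 0.0881) and liver minus mammary gland (-0.0667 to 0.103), and miR-26b duodenum minus liver (-0.0500 to 0.00269).

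Of 180 pairs of samples with the same number and diet in different tissues, 83 deviated together with a correlation over 0.1 (median 0.0859), against 238 of 900 with other numbers (median -0.021), and 35 of 90 samples correlated best with their own number. Same-numbered samples thus went together more often, but not in every pair, and the labels do not tie a number to a cow, so the samples were taken to share only a number, and the samples of a cow could not be matched. In the diet fits within a tissue, the replicate block joined samples with the same number on different diets. Such pairs had a median correlation of 0.00664, with 33 of 90 over 0.1, so there the block did not match samples of a cow. With this block in limma, miR-26a in jejunum had an adjusted p of 0.0448 over diets and 0.0561 for alfalfa hay minus corn stover. Mammary gland corn stover minus rice straw had 0.0234 for miR-26a and 0.0426 for miR-26b. The other calls of the members did not change with the block. With a filter of a mean of at least 10 CPM the same mammary gland difference of miR-26a had an adjusted p of 0.0460. The planned count model on reads worked out from the CPM was not run, since only 6 libraries met a stricter rule (100 or more low values, the smallest taken as 1 read). Each level of the members rested on at least 2950 reads by the estimate, but 2 of the 6 mammary gland rice straw libraries were shallow. The part of depth in the levels of the shallow libraries was not tested.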
